A study of Mus musculus with 7 samples.

Results

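Chondrocyte hypertrophy is the last stage of the growth-cartilage programme, in which cells enlarge, exchange collagen II for collagen X and make their matrix ready for mineral. In mouse cartilage the transcription factors RUNX2 and RUNX3 act together to start it, MEF2C acts upstream of and beside RUNX2, SP7 (osterix) acts downstream of RUNX2, and FOXA2 takes part in the collagen X stage. Healthy articular chondrocytes hold back this stage, and its appearance in joint cartilage is a known feature of osteoarthritis. The 8 genes described here are Col10a1, Runx1, Runx2, Runx3, Mef2c, Sp7, Panx3 and Foxa2, taken by name from a table of 52459 gene names, and each of the 8 was found once in that table and had enough counts to be tested. They hold 1 matrix gene (Col10a1, the chain of collagen X), 1 channel gene (Panx3, pannexin 3, a channel of prehypertrophic chondrocytes and osteoblasts) and 6 transcription factor genes.

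The libraries are bulk RNA sequencing of primary articular chondrocytes taken from mouse femoral heads, grown in medium with serum and then kept for 24 h with a ligand or its vehicle. There were 3 libraries with BMP2 at 100 ng/ml (replicates 1, 2 and 3), 2 with TGFβ1 at 5 ng/ml (TGFb, replicates 1 and 3) and 2 with vehicle (Vehicle, replicates 1 and 2). The labels give no strain, age or sex of the mice, and do not say whether replicates are separate animals or separate cultures, so p-values measure the spread between these libraries, which may be technical. Total counts ran from 6747997 to 10686885 with BMP2, from 16271793 to 18047765 with TGFb and from 6885056 to 7387051 with Vehicle. Levels are CPM (TMM-scaled read counts relative to library size) and RPKM (the same per kilobase of gene length), and values with ± are the mean and SD. A gene rose or fell where its adjusted p in edgeR's quasi-likelihood test was under 0.05. Ribosomal protein genes held 6.07% and 6.11% of all counts in the TGFb libraries, beside 0.991% to 1.31% with BMP2 and 0.974% and 1.03% with Vehicle. The median log2 fold change of TGFb against Vehicle was 2.67 over genes of at most 1000 nt and −0.42 over genes above 8000 nt, so the values of the 8 genes in comparisons with TGFb are also given with an offset for gene length. Libraries of 1 group did not lie equally close by the chi-square of their counts per gene. It was 1.84 between BMP2 replicates 2 and 3, but 13.6 and 17.8 between each of these and BMP2 replicate 1. Between the TGFb libraries it was 41.8, and between the Vehicle libraries 4.5. The chi-square grows with depth, but what set these libraries apart was not tested. The TGFb libraries were the deepest of all. With BMP2, total counts were 10686885, 6747997 and 9796199 in replicates 1, 2 and 3. Without BMP2 replicate 1, the log2 fold changes of BMP2 against Vehicle were 1.11 for Col10a1, 1.06 for Mef2c, 1.28 for Sp7 and 1.71 for Panx3, all of which passed, and −0.63 for Runx1, which did not. With either TGFb library left out, the 7 genes called with TGFb still passed in the same direction, and Sp7 lay at −0.60 without TGFb replicate 1 and −1.02 without TGFb replicate 3.

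The chondrocyte label was checked on 9 markers, all of them tested. Their summed level was 42620 to 49500 CPM with BMP2, 32610 to 38570 CPM with TGFb and 48550 to 48870 CPM with Vehicle. Most of each sum was Col2a1, which alone averaged 30948, 29574 and 35505 CPM in that order. Among them 1 rose and 1 fell with BMP2, and 6 fell and 0 rose with TGFb, beside 5.33% and 6.15% of all tested genes that rose and fell with BMP2, and 25.8% and 30.4% that fell and rose with TGFb. Of markers of other cells, the Cd3e, Cdh5, Myod1, Sox17, Mepe and Sost transcripts, defining markers of T cells, endothelium, muscle, endoderm and osteocytes, had 0 counts in all 7 libraries. Other markers on the same lists were detected. Pecam1 (endothelium) had 13, 12 and 16 counts in the BMP2 libraries, 4 and 6 in the TGFb libraries and 0 in both Vehicle libraries, and passed as higher with either ligand, at 1.40 and 0.376 CPM with BMP2 and TGFb. Vwf (endothelium) had 33 counts and Acta1 (muscle) 32 over all 7 libraries. The 4 osteoclast markers summed to 1.63 to 2.25 CPM with BMP2, 4.58 to 5.74 CPM with TGFb and 2.39 to 3.48 CPM with Vehicle. Only Acp5 among them was tested. It did not pass against Vehicle with either ligand and was lower in BMP2 against TGFb (−1.32). Ibsp, a bone matrix gene also made by hypertrophic chondrocytes, had 80.1 ± 6.30 CPM with BMP2, 144 ± 30.7 CPM with TGFb and 174 ± 10.1 CPM with Vehicle. The part of these cells in the results was not tested. In bulk RNA, fewer cells of a kind and less RNA per cell cannot be told apart.

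Col10a1 was the most abundant of the 8 genes per length in every group and was about 2.18-fold higher with BMP2 than with Vehicle. It had 1115, 1064 and 1084 CPM in the BMP2 libraries, 357 and 445 CPM in the TGFb libraries, and 502 and 494 CPM in the Vehicle libraries. The groups did not overlap: every BMP2 library lay above and both TGFb libraries lay below the Vehicle pair. Collagen X rose with BMP2, by 1.13 on the log2 scale (SE 0.13, adjusted p = 0.000399, edgeR). With TGFb the value was −0.31 (SE 0.14, adjusted p = 0.0770, edgeR), which did not pass, and its 95% interval ran from −0.62 to −0.01. That value passed as a fall without BMP2 replicate 1 (−0.31), with upper-quartile scaling (−0.49) and with the length offset (−0.52). It was −0.48 without TGFb replicate 3 and −0.16 without TGFb replicate 1. In 11 of 16 settings it kept its direction and stayed uncalled. Per kilobase, Col10a1 stood at 347 ± 8.18 RPKM with BMP2, 128 ± 20.02 RPKM with TGFb and 159 ± 1.66 RPKM with Vehicle, which placed it 55th, 576th and 120th among the 13367 tested genes. A share of 0.575% of its exon bases overlaps Nt5dc1 on the other strand.

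Col10a1 lies on chromosome 10 at 34389981 to 34397085 (mm10, plus strand). The 250 bases before its start and before the first annotated starts of Mef2c, which also rose with BMP2, and Runx3, which did not, are shown for their motif content (RefSeq, GRCm38.p6, each on the plus strand). RefSeq promoters were found for 6 of the 8 genes, with 12 starts in all. Capitals mark exact matches, on either strand, to the RUNX motif TGTGGT, the MEF2 core TATTTAT or the BMP-SMAD motif GGCGCC.
Col10a1, chr10:34389731-34389980: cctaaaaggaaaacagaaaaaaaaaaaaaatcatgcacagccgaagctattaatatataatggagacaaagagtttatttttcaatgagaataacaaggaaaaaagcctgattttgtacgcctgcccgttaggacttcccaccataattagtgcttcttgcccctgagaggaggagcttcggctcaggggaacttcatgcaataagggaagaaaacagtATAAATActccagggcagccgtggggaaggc
Mef2c, chr13:83503784-83504033: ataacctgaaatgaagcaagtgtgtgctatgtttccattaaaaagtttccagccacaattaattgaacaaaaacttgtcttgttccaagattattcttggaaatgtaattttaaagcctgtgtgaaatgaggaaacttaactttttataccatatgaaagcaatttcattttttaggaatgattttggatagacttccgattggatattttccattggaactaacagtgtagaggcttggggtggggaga
Runx3, chr4:135120395-135120644: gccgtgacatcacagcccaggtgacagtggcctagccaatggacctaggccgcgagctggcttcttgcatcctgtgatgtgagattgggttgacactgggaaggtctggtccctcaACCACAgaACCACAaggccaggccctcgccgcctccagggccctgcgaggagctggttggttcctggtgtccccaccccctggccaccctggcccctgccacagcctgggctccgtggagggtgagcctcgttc
The Col10a1 window held 1 MEF2 core match, 31 bases before the start on the reverse strand, which overlaps the letters TATAAA that begin 32 bases before it. MEF2 core letters occur in 5.17% and TATAAA in 12.4% of 32851 promoter windows of that length. The TATAAA search was added after the collagen X sequence had been seen. No RUNX match was in that window. The Runx3 window held 2 RUNX matches on the reverse strand, 134 and 126 bases before the start, and the Runx2 window held 1, 80 bases before its start, beside 14% of all windows. The GGCGCC letters were found in 1 window of the 6 genes, the third start of Foxa2 (147 bases before it), beside 9.59% of all windows. The other motifs searched were the GC box GGGCGG, the SMAD motif CAGAC and the FOXA core TGTTTAC, which occur in 32.7%, 42.2% and 3.17% of all windows. None of these 3 was in the Col10a1 window, and the FOXA core was in none of the 12. These matches describe letters only.

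**Figure D1:**
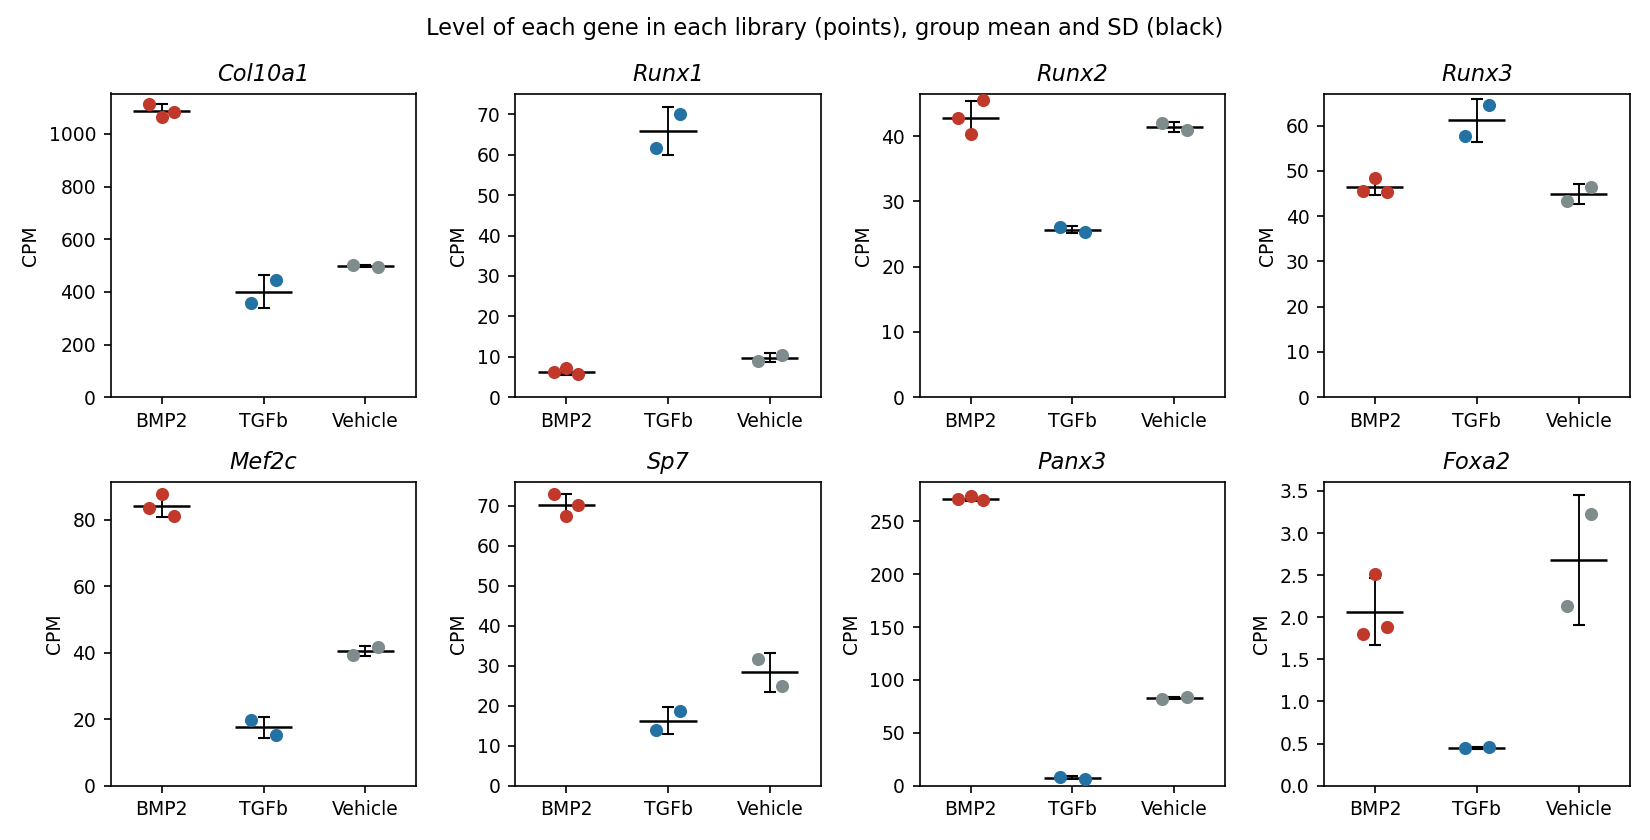
Level of each of the 8 genes in CPM (y axis, from 0) in each library (points), with the group mean (black line) and SD (bar), for BMP2 (n = 3), TGFb (n = 2) and Vehicle (n = 2). Panx3 runs from 7.62 CPM with TGFb to 272 CPM with BMP2, and Runx1 is the gene that is high with TGFb and low with BMP2.

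Panx3 had the largest fold difference of the 8 genes in each comparison with Vehicle and between the ligands, while Col10a1 spanned more CPM. Pannexin 3 forms a channel for ATP and calcium and promotes chondrocyte and osteoblast differentiation in mouse cells. It had 270.9, 274 and 270.1 CPM in the BMP2 libraries, 8.61 and 6.64 CPM in the TGFb libraries, and 82.0 and 83.8 CPM in the Vehicle libraries. All 3 groups were separate, and the coefficient of variation among the BMP2 libraries was 0.735%. Panx3 rose 3.28-fold with BMP2 (log2 fold change 1.71, SE 0.13, adjusted p = 4.09e-05, edgeR) and fell 10.9-fold with TGFb (−3.44, SE 0.15, adjusted p = 2.87e-08, edgeR; −3.61 with the length offset). It ranked 21st by p among the 13367 tested genes in the BMP2 comparison. Between the ligands it was 35.5-fold higher with BMP2 than with TGFb (5.15, SE 0.16, adjusted p = 2.13e-09, edgeR).

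Panx3 and Col10a1 did not keep their proportion. The ratio of Panx3 to Col10a1 in RPKM, which does not depend on the scaling of a library, was 0.222, 0.235 and 0.227 with BMP2, 0.0220 and 0.0136 with TGFb, and 0.149 and 0.155 with Vehicle. The BMP2 libraries were thus above, and the TGFb libraries below, both Vehicle libraries. Panx3 lies on chromosome 9 at 37659902 to 37669235 on the minus strand and shares no exon base with another gene. The paralogs Panx1 and Panx2, which encode channels of many tissues, were low: Panx1 had 3.50 ± 0.614 CPM with BMP2, 4.92 ± 0.924 CPM with TGFb and 3.73 ± 0.0256 CPM with Vehicle, and neither paralog passed in any comparison.

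The RUNX genes encode the DNA-binding subunits that pair with CBFB, and they moved apart from each other. RUNX1 is best known for blood formation and is also made in cartilage progenitors, RUNX2 drives hypertrophy and bone formation, and RUNX3 shares the hypertrophic role. Runx1 had 6.18, 7.16 and 5.64 CPM in the BMP2 libraries, 61.7 and 70.1 CPM in the TGFb libraries, and 8.96 and 10.5 CPM in the Vehicle libraries. The TGFb libraries were far above the rest, and the BMP2 libraries lay just under the Vehicle libraries. Runx1 rose 6.74-fold with TGFb (log2 fold change 2.75, SE 0.16, adjusted p = 1.76e-07, edgeR; 3.09 with the length offset). Its fall with BMP2 of −0.64 (SE 0.17, adjusted p = 0.0329, edgeR) was not kept without BMP2 replicate 1 (−0.63), BMP2 replicate 3 (−0.56), Vehicle replicate 1 (−0.74) or Vehicle replicate 2 (−0.51), nor in DESeq2 (−0.61) or with the length offset (−0.55).

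Because Runx1 is a blood gene, markers of blood cells were measured beside it. The summed level of 8 leukocyte markers was 14.1 to 17.0 CPM with BMP2, 19.4 to 29.1 CPM with TGFb and 20.2 to 29.0 CPM with Vehicle, of which Lyz2 alone averaged 10.5, 15.9 and 18.1 CPM in that order. Ptprc, the pan-leukocyte marker, had 16 counts over all 7 libraries. Of the 4 leukocyte markers tested, Cd68 rose with TGFb, to 6.41 ± 2.59 CPM, against 2.14 ± 0.189 CPM with Vehicle (1.58, adjusted p = 0.00243, edgeR), Adgre1 fell with TGFb, to 0.447 ± 0.200 CPM, against 1.47 ± 0.383 CPM with Vehicle, and Csf1r and Lyz2 did not pass. The 4 platelet markers summed to 8.58 to 10.4 CPM with BMP2, 12.1 to 12.5 CPM with TGFb and 3.59 to 4.01 CPM with Vehicle. Of these, Pf4 and Itga2b rose with TGFb, to 7.13 and 3.89 CPM, against 1.40 and 0.626 CPM with Vehicle, while Gp1bb did not pass with TGFb and rose with BMP2 by 2.31, and Gp9 was not tested, with 6 counts in all. These marker values carry no length offset. With TGFb the log2 fold changes of Pf4 and Itga2b were 2.35 and 2.60. The median of all tested genes was 2.67 in the shortest length class, which ends at 1000 nt. In the classes ending at 2000, 4000 and 8000 nt it was 0.871, 0.097 and −0.156, and in the longest class −0.42. Pf4 had more RPKM (9.89) than CPM with TGFb, as a gene under 1000 nt does, and its 2.35 lay below the 2.67 of that class. Itga2b had less RPKM (0.714) than CPM, as a longer gene does. Its 2.60 lay above the median of every class beyond 1000 nt. The part of blood cells in the Runx1 result was not tested.

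Runx2 had 42.7, 40.3 and 45.5 CPM in the BMP2 libraries, 26.0 and 25.3 CPM in the TGFb libraries, and 42.0 and 40.9 CPM in the Vehicle libraries. The TGFb libraries were below all others, and the BMP2 and Vehicle ranges overlapped. Runx2 fell with TGFb by −0.69 (SE 0.12, adjusted p = 0.000653, edgeR; −0.48 with the length offset). With BMP2 its log2 fold change was 0.05 (adjusted p = 0.831, edgeR), with a 95% interval from −0.19 to 0.29. A share of 5.87% of its exon bases overlaps Runx2os1 on the opposite strand; no source used here states how strand was treated in counting.

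Runx3 had 45.5, 48.5 and 45.3 CPM in the BMP2 libraries, 57.7 and 64.5 CPM in the TGFb libraries, and 43.3 and 46.4 CPM in the Vehicle libraries. The TGFb libraries were highest and the other groups overlapped. Runx3 rose with TGFb by 0.45 (SE 0.12, adjusted p = 0.00882, edgeR; 0.44 with the length offset), but it did not pass without Vehicle replicate 1 (0.35) or with upper-quartile scaling (0.26), and on library totals with no TMM its sign turned (−0.063). With BMP2 its log2 fold change was 0.05, with a 95% interval from −0.20 to 0.29, and it did not pass.

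Set against each other per length, the RUNX transcripts had another make-up with TGFb. Runx1 made up 3.62%, 4.07% and 3.25% of the summed RUNX RPKM in the BMP2 libraries, 26.5% and 27.3% in the TGFb libraries, and 5.35% and 6.01% in the Vehicle libraries. Runx2 made up 33.1% ± 2.22, 14.1% ± 1.25 and 32.4% ± 1.59 with BMP2, TGFb and Vehicle in that order. Runx3 was the largest share in all 7 libraries, between 58.6% and 65.3%. The ratio of Runx1 to Runx2 in RPKM was 0.0926 to 0.133 with BMP2, 1.77 and 2.07 with TGFb, and 0.159 and 0.192 with Vehicle. The deposited lengths of Runx1 and Runx2, 11827 and 8837 nt, join the exons of several isoforms, while their longest single transcripts have 5861 and 6463 nt, so the shares between genes would differ with another length; the change of a ratio between groups would not.

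**Figure D2:**
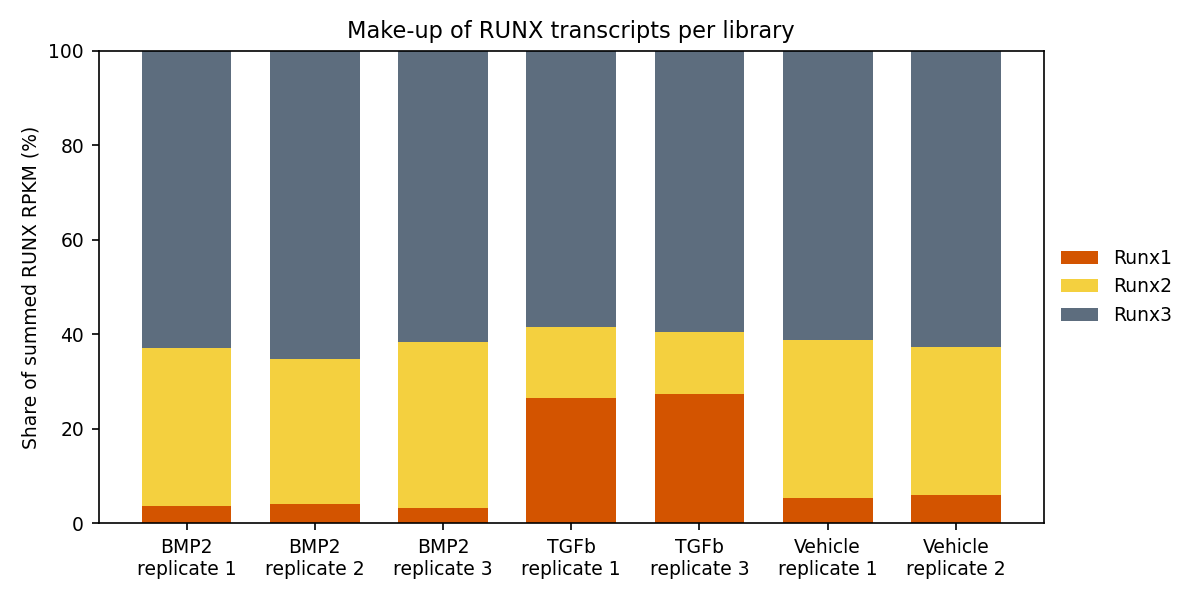
Share of each RUNX gene in the summed RUNX RPKM (y axis, percent, from 0 to 100) in each of the 7 libraries. The Runx1 segment takes 26.5% and 27.3% in the TGFb libraries and at most 6.01% in the other 5.

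Mef2c and Sp7 moved with the ligands in the same directions as Panx3. MEF2C switches on Runx2 and Col10a1 in mouse growth cartilage. Its gene had 83.4, 87.6 and 81.2 CPM in the BMP2 libraries, 19.7 and 15.3 CPM in the TGFb libraries, and 39.3 and 41.6 CPM in the Vehicle libraries. The 3 groups were separate. Mef2c rose with BMP2 by 1.05 (SE 0.13, adjusted p = 0.000546, edgeR) and fell with TGFb by −1.21 (SE 0.14, adjusted p = 5.01e-05, edgeR), a fall that was −0.74 with the length offset. Mef2c has a deposited length of 15715 nt over 31 transcripts. Skeletal muscle, another source of Mef2c, had 0 of its 6 markers tested, and their sum was at most 1.201 CPM in any library.

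SP7 is required for bone formation and for the terminal stage of hypertrophic cartilage in the mouse. Sp7 had 73.0, 67.5 and 70.2 CPM in the BMP2 libraries, 13.9 and 18.6 CPM in the TGFb libraries, and 31.8 and 24.9 CPM in the Vehicle libraries. No group overlapped another, with a coefficient of variation of 3.93% among the BMP2 libraries and 17.3% among the Vehicle libraries. Sp7 rose with BMP2 by 1.31 (SE 0.15, adjusted p = 0.000415, edgeR) and fell with TGFb by −0.80 (SE 0.17, adjusted p = 0.00245, edgeR; −1.05 with the length offset). The RPKM ratio of Sp7 to Runx2 was 4.69 to 5.20 with BMP2, 1.62 and 2.24 with TGFb, and 2.31 and 1.85 with Vehicle. The TGFb and Vehicle ratios overlapped, but RPKM carries no length offset. The falls of Sp7 and Runx2 with TGFb were −0.80 and −0.69 without the offset, and −1.05 and −0.48 with it. The ratio of Col10a1 to Sp7 was 14.2 to 14.6 with BMP2, 23.8 and 22.2 with TGFb, and 14.6 and 18.5 with Vehicle.

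Foxa2 was near the lower limit of these libraries. It had 21, 19 and 20 counts in the BMP2 libraries, 6 and 6 in the TGFb libraries, and 16 and 27 in the Vehicle libraries. That is 1.80, 2.52 and 1.88 CPM with BMP2, 0.441 and 0.458 CPM with TGFb, and 2.14 and 3.23 CPM with Vehicle. The TGFb libraries were the deepest and had the fewest Foxa2 counts. The exact Poisson 95% intervals, which cover counting error only, reached at most 0.997 CPM in the TGFb libraries and began at 1.12 CPM or above in the other 5. Foxa2 fell with TGFb by −2.56 (SE 0.43, adjusted p = 0.000549, edgeR; −2.95 with the length offset). With BMP2 its log2 fold change was −0.41 with a 95% interval from −1.13 to 0.31 (adjusted p = 0.482, edgeR), which did not pass. Foxa3, the paralog that acts with FOXA2 in mouse hypertrophic cartilage, rose to 8.45 ± 0.945 CPM with BMP2 and 7.58 ± 2.08 CPM with TGFb, against 4.14 ± 0.567 CPM with Vehicle. Its rise with BMP2 (1.01) did not pass without BMP2 replicate 2 (0.94), Vehicle replicate 1 (0.89) or Vehicle replicate 2 (1.17). Foxa1 had 2 counts in all 7 libraries.

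**Figure D3:**
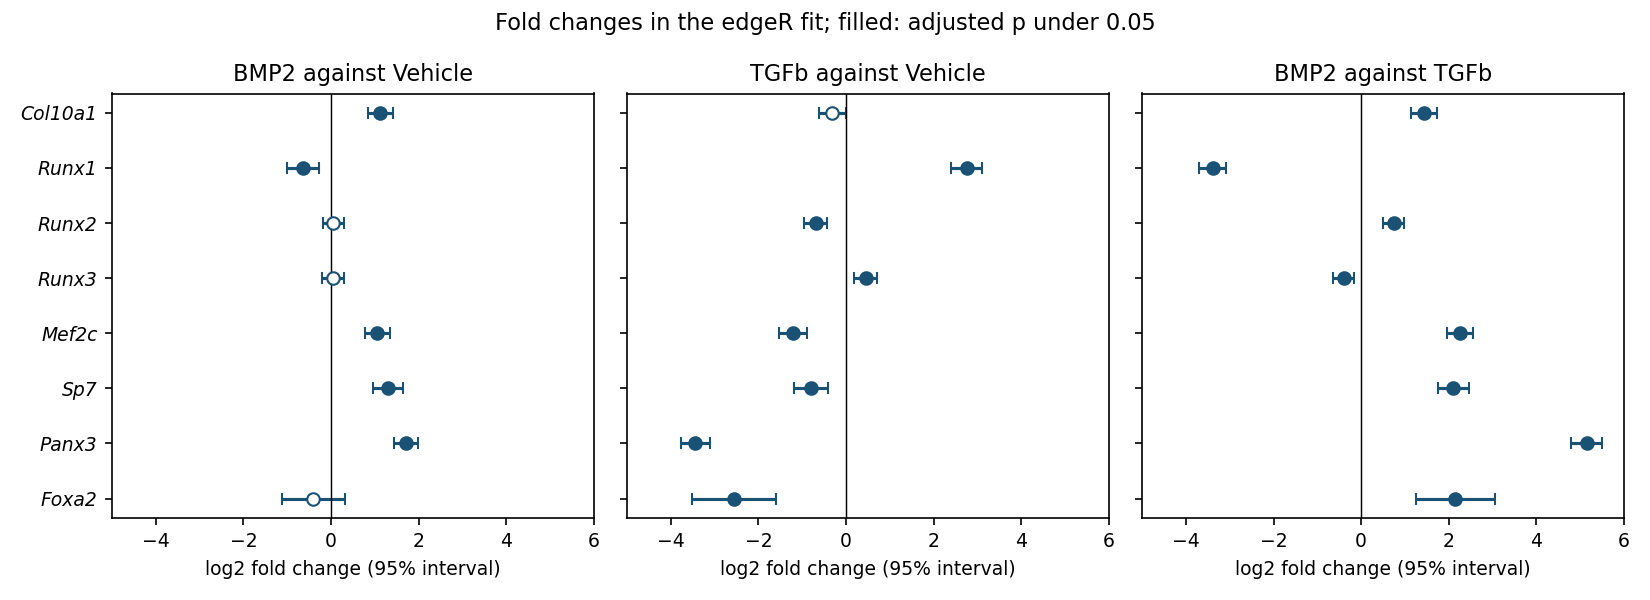
Log2 fold change (x axis) with its 95% interval for each of the 8 genes (rows) in BMP2 against Vehicle, TGFb against Vehicle and BMP2 against TGFb. Filled points passed an adjusted p of 0.05: Runx1 lies at −0.64, 2.75 and −3.39, opposite in sign to Panx3 at 1.71, −3.44 and 5.15.

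Counted together, 4 of the 8 genes rose with BMP2 (Col10a1, Mef2c, Sp7 and Panx3) and Runx1 fell, beside 5.33% of the 13367 tested genes that rose and 6.15% that fell. With TGFb, 2 rose (Runx1 and Runx3) and 5 fell (Runx2, Mef2c, Sp7, Panx3 and Foxa2), beside 30.4% and 25.8% of all tested genes. CPM ranges lay wholly above Vehicle for 4 genes and below it for 1 with BMP2, beside 21.9% and 22.7% of all tested genes, and for 2 and 6 genes with TGFb, beside 40% and 40.1%. Their median log2 fold change was 0.55 with BMP2 and −0.75 with TGFb, beside 0.00 and −0.02 over all tested genes. In BMP2 against TGFb all 8 passed, 6 higher and 2 lower, beside 28.1% and 33.3% of all tested genes, and their ranges were separate in the same directions, beside 35.1% and 38.6%. Since 56.2% of genes passed in either direction with TGFb and 61.4% between the ligands, a pass there sets a gene apart less than a pass among the 11.5% of BMP2 against Vehicle. Both ligand comparisons share the 2 Vehicle libraries. Between the ligands, Mef2c, Sp7 and Foxa2 were higher with BMP2 by 2.26, 2.11 and 2.15, Col10a1 by 1.44 and Runx2 by 0.74, while Runx1 and Runx3 were lower by −3.39 and −0.40. With the length offset these were 1.91 for Mef2c, 2.37 for Sp7, 2.55 for Foxa2, 1.66 for Col10a1, 0.60 for Runx2, −3.63 for Runx1 and −0.36 for Runx3, and Panx3 was at 5.33. All 8 passed with it.

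**Figure D4:**
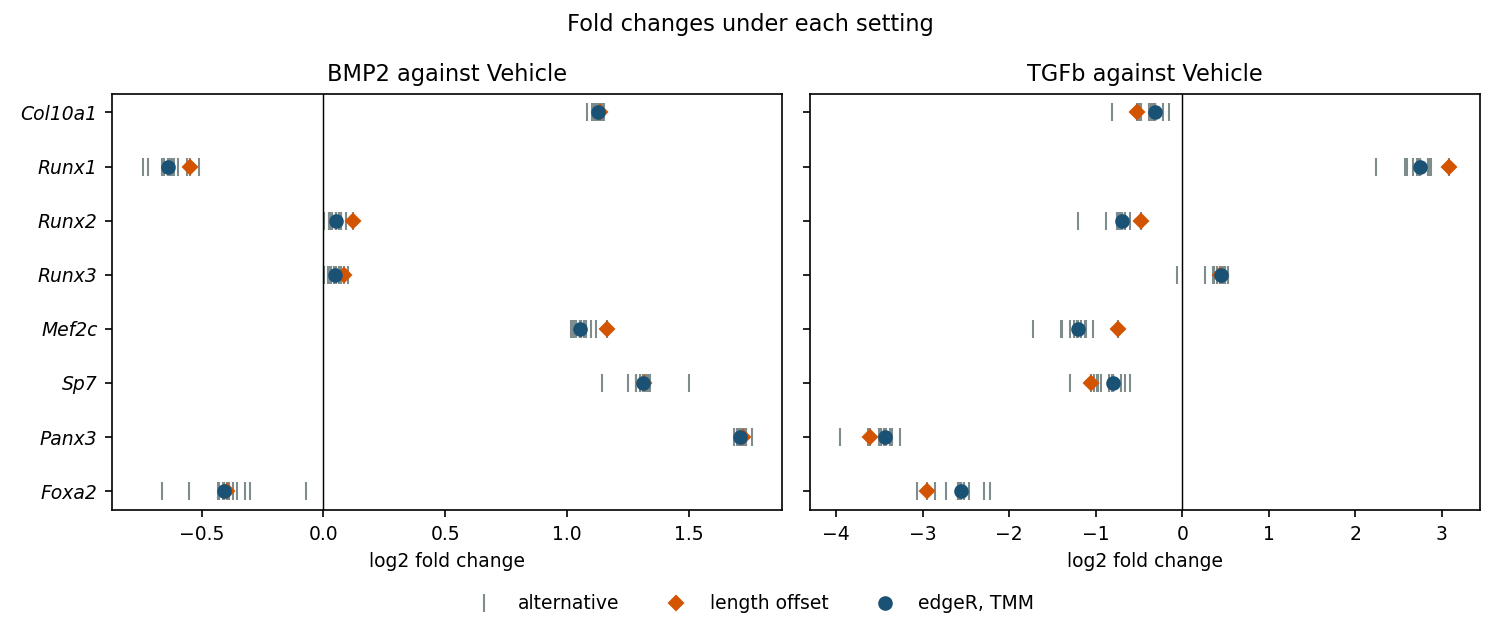
Log2 fold change (x axis) of each gene (rows) in BMP2 against Vehicle and TGFb against Vehicle, as reported (circles), with the length offset (diamonds) and under every alternative setting (ticks). With TGFb the ticks of Runx3 reach −0.063 and those of Col10a1 lie between −0.82 and −0.16; those of Panx3 lie between −3.95 and −3.26.

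The regulators that act with RUNX2 were counted in a list of 27 genes, 25 of them tested. With BMP2, 6 rose and 4 fell (median −0.06), beside 5.33% and 6.15% of all tested genes. With TGFb 3 rose and 14 fell (median −0.59), beside 30.4% and 25.8%. With the length offset 14 passed with TGFb, 3 higher and 11 lower, beside 3444 higher and 3818 lower of the 13367 tested genes. Values of single related genes carry no length offset unless it is stated. Cbfb, the common partner of all RUNX proteins, had 227 ± 13.5 CPM with BMP2, 73.6 ± 12.6 CPM with TGFb and 145 ± 11.1 CPM with Vehicle. It rose with BMP2 by 0.65 (SE 0.14, adjusted p = 0.0118, edgeR) and fell with TGFb by −0.98 (SE 0.15, adjusted p = 0.000259, edgeR). The BMP2 rise was lost when Vehicle replicate 1 (0.57) or replicate 2 (0.73) was left out. Hdac4, which encodes a repressor of RUNX2 and MEF2C, had 27.98 ± 2.81 CPM with BMP2, 35.9 ± 5.24 CPM with TGFb and 18.7 ± 0.494 CPM with Vehicle. It rose with TGFb by 0.94, and with BMP2 by 0.59, which was lost without BMP2 replicate 3 (0.63), Vehicle replicate 1 (0.56) or Vehicle replicate 2 (0.62).

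The same list holds homeobox and Notch-target genes. Dlx5, an activator of Runx2 and Sp7, had 35.4 ± 4.65 CPM with BMP2, 2.70 ± 0.0351 CPM with TGFb and 16.2 ± 1.64 CPM with Vehicle, a rise of 1.13 and a fall of −2.58. Msx2, a BMP target, rose with BMP2 by 2.47 and had a log2 fold change of −0.20 with TGFb that did not pass. Hey1, whose product restrains RUNX2, rose by 3.09 with BMP2 and fell by −3.34 with TGFb. Sox9, which keeps chondrocytes from hypertrophy, had 623 ± 81.7 CPM with BMP2, 206 ± 30.4 CPM with TGFb and 542 ± 20.1 CPM with Vehicle, so that it fell with TGFb (−1.40) and did not pass with BMP2 (0.20). Nkx3-2, a repressor of Runx2, fell with TGFb by −2.01. The list's 10 calls with BMP2 became 3 without either Vehicle library and 6 without BMP2 replicate 3.

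Of 18 genes of hypertrophic and terminal chondrocytes, 16 were tested. With BMP2, 5 rose and 4 fell (median 0.52), beside 5.33% and 6.15% of all tested genes. With TGFb 3 rose and 6 fell (median −0.10), beside 56.2% of all tested genes called in either direction. In that fit 9 of 16 is near the background. With the length offset 14 passed, 3 higher and 11 lower, beside 3444 higher and 3818 lower of the 13367 tested genes. Ihh, the prehypertrophic hedgehog signal, had 59.3, 35.7 and 37.8 CPM in the BMP2 libraries, highest in replicate 1, without which its log2 fold change was 3.72. It had 44.2 ± 13.1 CPM with BMP2, 0.226 ± 0.112 CPM with TGFb and 2.81 ± 0.757 CPM with Vehicle, and Alpl, the phosphatase of mineralising matrix, had 206 ± 15.8, 21.0 ± 4.16 and 56.4 ± 8.91 CPM in the same order. Both rose with BMP2 (3.99 and 1.87) and fell with TGFb (−3.56 and −1.42), as Panx3 did. Smpd3, a sphingomyelinase of mineralising cartilage, had 355 ± 46.9 CPM with BMP2, 15.5 ± 1.47 CPM with TGFb and 264 ± 7.62 CPM with Vehicle. It fell with TGFb by −4.09 and did not pass with BMP2 (0.43).

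Mmp13 and Spp1 fell with BMP2, where Col10a1 rose. Mmp13, the collagenase of terminal hypertrophic cartilage, fell with BMP2 to 89.0 ± 8.77 CPM, against 329 ± 11.2 CPM with Vehicle (−1.89, SE 0.13, adjusted p = 2.79e-05, edgeR). Its value with TGFb was 272 ± 37.7 CPM (−0.27), which did not pass but did without TGFb replicate 3 (−0.42), with upper-quartile scaling (−0.46) and with the length offset (−0.58). Spp1 (osteopontin) fell with BMP2 to 303 ± 21.1 CPM, against 878 ± 120 CPM with Vehicle (−1.53). The pyrophosphate genes Ank and Enpp1 rose with TGFb by 1.87 and 1.26. Bglap and Bglap2, the osteocalcin genes of osteoblasts, are near-identical copies whose reads may be split. In the fit without a length offset, neither passed in any comparison. With the offset all 16 tested genes of the hypertrophic and terminal list, Bglap and Bglap2 included, passed in BMP2 against TGFb. Of these 10 were higher and 6 lower, beside 4358 higher and 3804 lower of the 13367 tested genes. Bglap had 66.9 CPM in BMP2 replicate 1, against 24.0 and 27.9 CPM in the other BMP2 libraries.

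**Figure D5:**
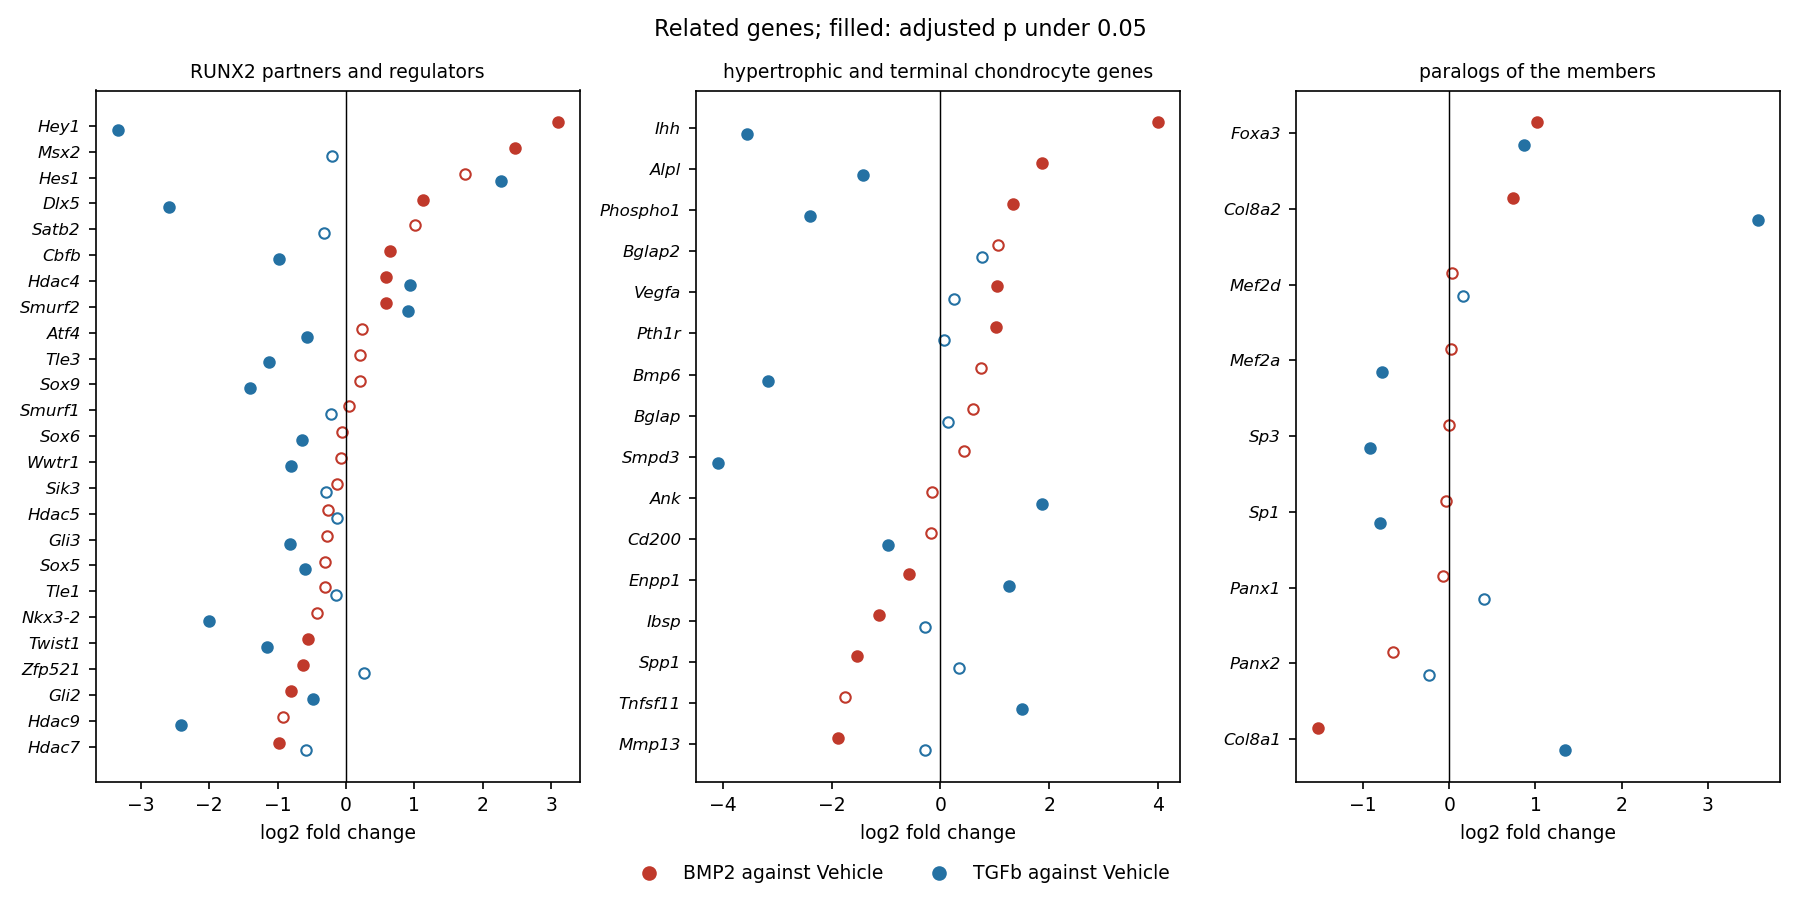
Log2 fold change (x axis) of the tested genes of 3 lists (rows) in BMP2 against Vehicle and TGFb against Vehicle, filled where the adjusted p was under 0.05. Ihh, Alpl and Dlx5 lie right of 0 with BMP2 and left of it with TGFb, while Mmp13 lies at −1.89 with BMP2.

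Of 13 paralogs of the 8 genes, 9 were tested, with 2 rises and 1 fall for BMP2 and 3 rises and 3 falls for TGFb. The shares of all tested genes called were 11.5% and 56.2%. With the length offset 5 paralogs passed with TGFb, 2 higher and 3 lower, beside 3444 higher and 3818 lower of the 13367 tested genes. Col8a1 and Col8a2 encode collagen VIII, the short-chain relative of collagen X. Col8a1 had 6.14 ± 1.21 CPM with BMP2, 45.3 ± 0.346 CPM with TGFb and 17.8 ± 0.564 CPM with Vehicle, a fall of −1.53 and a rise of 1.35, each opposite in sign to the value of Col10a1. Col8a2 had 12.8 ± 1.73, 92.3 ± 13.0 and 7.71 ± 0.0711 CPM in the same order, and rose with TGFb by 3.58. Its rise with BMP2 (0.74) was lost without BMP2 replicate 2 (0.71), Vehicle replicate 1 (0.75) or Vehicle replicate 2 (0.73). Mef2a, the paralog of Mef2c, fell with TGFb by −0.78 and did not pass with BMP2 (0.02), and Sp3 likewise fell with TGFb by −0.92. The list's 3 calls with BMP2 became 1 without BMP2 replicate 2 or either Vehicle library.

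Genes with the most similar profile over the 7 libraries were found by the root-mean-square difference of mean-centred log2 CPM, in a pool of 9854 genes whose log2 CPM averaged 2 or more. For Col10a1 these were Plxna2, Scd2 and Nrxn2, each within 0.0789 of it. Sp7 lay closest to Smad6 (0.125), an inhibitor of BMP signalling, followed by Nebl and Tspan18. Mef2c lay closest to Lrrc17 (0.0929), Gnb4 and Slc44a2. The closest gene to Panx3, Otog, differed by 0.382, and Myoc and Tmem266 by 0.456 and 0.511. This difference tends to be larger for genes with larger changes, and Panx3 had the largest changes of the 8. The Pearson correlations of Panx3 with these genes were 0.984, 0.979 and 0.985. Runx1 lay closest to Sod3 (0.133), followed by 1190007I07Rik and Mcee. Runx2 lay closest to Knl1 (0.0337), and Runx3 to Mfsd5 (0.0576), while Foxa2 lay closest to Frmd4b (0.215). Among the 8 genes themselves the nearest pairs by this difference were Mef2c with Sp7 (0.293) and Col10a1 with Sp7 (0.295). The farthest was Runx1 with Panx3 (3.56). By Pearson correlation Mef2c lay closer to Panx3 (0.988) than to Sp7 (0.951). These distances describe 7 libraries in 3 groups, which share a culture system and scaling.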

How the data were processed

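RNA of primary mouse articular chondrocytes was sequenced in bulk (7 libraries). The authors deposited whole-number counts per gene name and a gene length; the tools named, per the submitters' processing notes, are featureCounts, Subread, STAR 2.4.2a, cutadapt and DESeq2, and the build is mm10; their roles are not stated. No source used here gives the annotation, the strand setting or the treatment of multi-mapped reads. The deposited length (nt) was used for RPKM and for the length offset. The deposited counts went into edgeR 4.0.16 (R 4.3.3): filterByExpr (13367 genes), TMM, 1 quasi-likelihood model of all 7 libraries, each group having its own coefficient (4 residual degrees of freedom), and Benjamini-Hochberg adjustment over all tested genes, 2-sided. The 95% intervals use the fit's moderated degrees of freedom. The steps were tested on simulated data. The length offset takes a lowess trend of log2 CPM on log2 length per library (span 0.3).

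Alternatives were DESeq2 1.42.0, DESeq2 size factors, upper-quartile scaling, no filter, only the groups compared, a replicate block, each library left out, the length offset, genes of at least 2000 nt, and library totals with no TMM (added after the data had been seen). The members and lists were chosen with earlier results of these data known, and no list was tested as a set. The text names all 8 members, for each list some of the up to 4 genes per comparison with the smallest p, a few fixed genes (Ihh, Mmp13, Cbfb, Hdac4, Sox9), and the 3 closest profiles; Panx1, Panx2, Bglap, Bglap2 and the blood and other markers were named with values in view. Nkx3-2 is written with another separator in the file. Positions and exon overlaps are from GENCODE M21 (mm10), and promoters from RefSeq (GRCm38.p6).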

Additional observations from a re-analysis of the deposited data

How the results depend on the processing

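Of 384 values of the 8 genes (24 gene and comparison pairs under 16 settings), 365 kept their direction and their side of the threshold, 12 lost the call, 5 gained one and 2 changed sign. Col10a1 with TGFb against Vehicle passed with upper-quartile scaling (−0.49), the length offset (−0.52) and library totals (−0.82), and ran from −0.48 to −0.16 with a library left out. Runx3 with TGFb against Vehicle lost its call with upper-quartile scaling (0.26) and turned on library totals (−0.063), and ran from 0.35 to 0.53 with a library left out. In BMP2 against TGFb, Runx3 lost it with upper-quartile scaling (−0.24) and with no filter (−0.34), and turned on library totals (0.10), as Hdac4 did (0.13). Library totals move the median of all genes in TGFb against Vehicle to −0.53 and in BMP2 against TGFb to 0.47, and upper-quartile scaling to −0.20 and 0.14. Runx1 with BMP2 against Vehicle lost its call in DESeq2 (−0.61) and with the length offset (−0.55), and ran from −0.74 to −0.51 with a library left out. Of the late-stage list, 14 genes passed with TGFb and the length offset, rather than 9. In that setting 3 RUNX2 partners were higher and 11 lower, rather than 3 and 14. For the paralogs it was 2 higher and 3 lower, rather than 3 and 3. The genes called with BMP2 against Vehicle, 1535, ran from 557 to 1698 with a library left out, the RUNX2 partners called from 3 to 11, and the paralogs called from 1 to 3. The causes were not tested, except that a library left out leaves fewer samples.

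Whether replicate numbers pair the libraries was not settled. Deviations from group means of same-numbered libraries correlated between −0.139 and −0.000945. In a group of 2 libraries (TGFb, Vehicle) these deviations mirror each other, so the correlations cannot exclude pairing. With a replicate block, 771 genes and 5 RUNX2 partners were called in BMP2 against Vehicle, Runx1 there was at −0.60 and Runx3 in TGFb against Vehicle at 0.47, neither of them called. Of the related genes, the BMP2 rises of Cbfb (0.62), Hdac4 (0.56) and Col8a2 (0.75) did not pass with the block either. Foxa2 rests on 6 to 27 counts per library.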
